A study of Phrynocephalus vlangalii with 2 samples.

Results

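Muscle contracts when calcium leaves the sarcoplasmic reticulum, the internal calcium store of the muscle cell, and relaxes when calcium is pumped back. Ryanodine receptors are the large channels of that store through which calcium is released, with type 1 as the main form of skeletal muscle, type 2 that of the heart and type 3 a form found at lower levels in several tissues. Sarcoplasmic/endoplasmic reticulum calcium ATPases carry calcium back into the store, and phospholamban is a small membrane protein that slows this pump in heart and slow muscle until it is phosphorylated.

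The members were chosen by annotation text alone, as the rows of the deposited table whose annotation held 1 of 6 words or phrases for these proteins in any case. They numbered 27 of 58458 assembled genes, of which 14472 carried an annotation text. The phrase for ryanodine receptors matched 18 rows, that for the sarcoplasmic/endoplasmic reticulum 8 and phospholamban 1, while calsequestrin, sarcolipin and junctophilin matched 0 texts. These are counts of texts, and an assembled gene without a text can code for any of them. An assembled gene is a cluster of contigs that the assembler kept together, so that several copies of 1 annotation can be pieces of 1 transcript, paralogs or sequences of another organism.

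RNA was sequenced from adult toad-headed lizards, Phrynocephalus vlangalii, of the Madoi and Maqu populations, which the study compared for life at high altitude. There was 1 Madoi library and 1 Maqu library, and each held RNA of 4 tissues of its population, namely muscle, heart, lung and liver. The number of animals in a library is not given in the sources used here. Estimated reads summed to 63636521 in Madoi and 66401051 in Maqu.

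With 1 library per population there was no replicate check. Each log2 ratio of Madoi over Maqu below compares these 2 libraries, not the populations, and its exact 95% interval covers counting error only. In pooled tissue, a smaller share of a tissue, fewer cells of a type and less RNA per cell cannot be told apart. A call, higher or lower, needed a difference of at least 2-fold, an interval without equality, and a total of at least 10 reads over the 2 libraries. All 27 members reached the minimum of 10 reads.

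The store proteins that carried nearly all the reads were close between the libraries. Summed over copies, the calcium ATPase had a log2 ratio of 0.13, ryanodine receptor 1 of -0.23, ryanodine receptor 2 of 0.26, ryanodine receptor 3 of -0.16 and phospholamban of -0.42, and 0 of these 5 annotations was called. Over single copies, 4 members were called higher in Madoi and 2 lower, leaving 21 that were neither. Over all 58439 assembled genes with enough reads, 28.5% were called higher in Madoi and 10.7% lower. The members' shares therefore did not stand above this background in either direction. Outside the assembled genes read almost only in 1 library, meaning with 0 reads in the other or a ratio beyond 5 on the log2 scale, 12.1% were called higher and 12.5% lower, and of the 25 members left there 2 were higher and 2 lower. The median over the 27 members was 0.33, beside 0.19 over all assembled genes with enough reads. It was 0.13 over the 14472 assembled genes with an annotation text, and 0.27 over the 25 members not read almost only in Madoi.

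**Figure D1:**
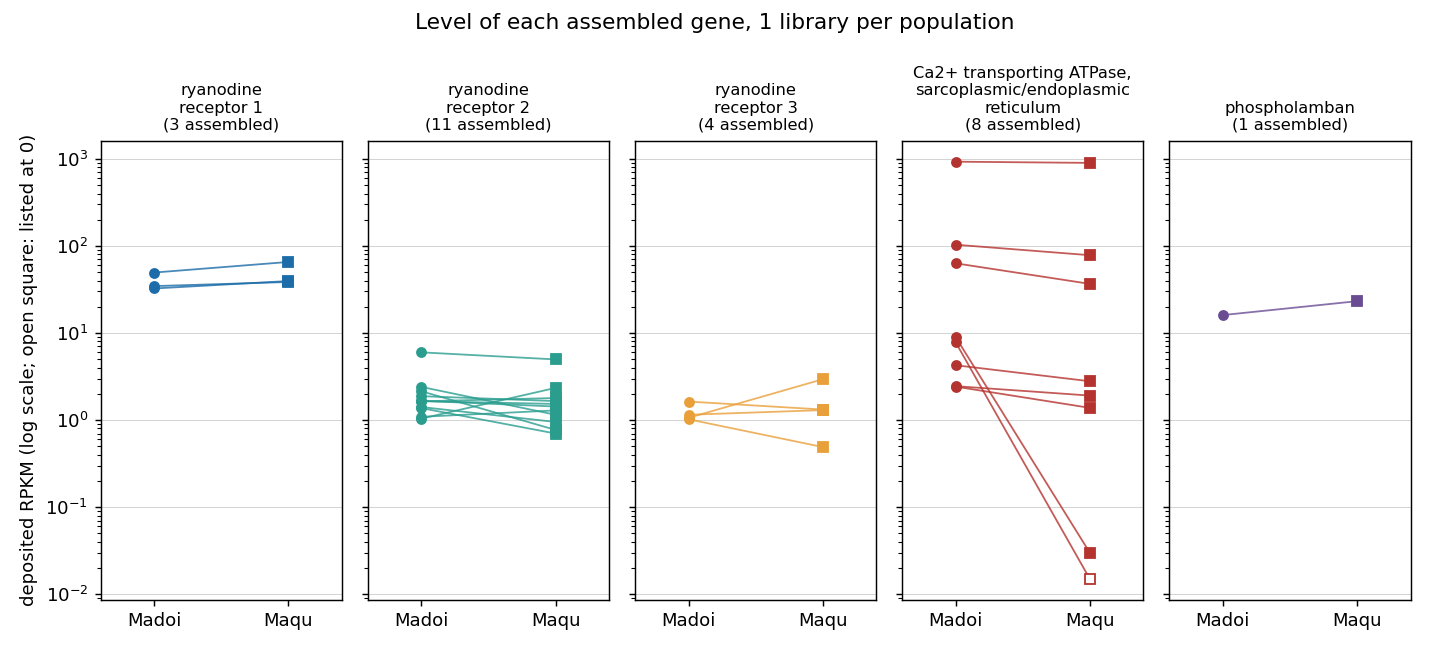
Deposited RPKM (log axis) of each of the 27 assembled genes in the Madoi library (circles) and the Maqu library (squares), with a line joining the values of 1 assembled gene and 1 panel per annotation; there are no replicates and so no error bars. The largest ATPase copy sits at 928 RPKM in Madoi and 899 RPKM in Maqu, the 3 copies of ryanodine receptor 1 between 32.5 and 65.5 RPKM, and the open square marks the ATPase copy listed at 0 in Maqu.

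Levels in RPKM are given as deposited, on a scale that divides reads by length and library size. For the copy with the most reads of each annotation, the order was the same in both libraries. The calcium ATPase came first at 928 RPKM in Madoi and 899 RPKM in Maqu, and ryanodine receptor 1 next at 49.5 RPKM in Madoi and 65.5 RPKM in Maqu. Phospholamban stood at 16.1 RPKM in Madoi and 23.2 RPKM in Maqu. Ryanodine receptor 2 followed at 5.99 RPKM in Madoi and 4.97 RPKM in Maqu, and ryanodine receptor 3 was lowest at 1.63 RPKM in Madoi and 1.32 RPKM in Maqu. Over single copies the order changed. The 247-base ATPase copy, at 63.1 RPKM in Madoi and 36.7 RPKM in Maqu, lay above all 3 copies of ryanodine receptor 1 in Madoi and below all 3 in Maqu. The copies of ryanodine receptor 1 with 6580 and 8455 bases also changed places, and the short pieces of ryanodine receptor 2 overlapped in level with those of ryanodine receptor 3. Together the members held 0.473% of the reads in Madoi and 0.463% in Maqu.

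Ryanodine receptor 1 opens when the voltage sensor of the surface membrane touches it, and it was read slightly less in Madoi by all 3 of its copies. The first copy, 4364 bases long, had 14303 reads in Madoi and 19650 in Maqu, with a log2 ratio of -0.35 (interval -0.38 to -0.32). The second copy, 6580 bases in 4 assembled transcripts, had 13039 reads in Madoi and 16471 in Maqu, with a log2 ratio of -0.23 (interval -0.26 to -0.19). The third copy, 8455 bases in 29 assembled transcripts, had 10314.5 reads in Madoi and 11544 in Maqu, with a log2 ratio of -0.05 (interval -0.09 to -0.01). The direction was shared, but the intervals of the 3 copies did not overlap, so the copies differed among themselves by more than counting error. The first and second copies had the same protein entry as their best match in the table, and the third a different one. Summed, the annotation had 37657 reads in Madoi and 47664 in Maqu, with a ratio of -0.23 (interval -0.25 to -0.21), or 0.853 times the Maqu level.

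Ryanodine receptor 2, the release channel of heart muscle cells, was assembled as 11 pieces with 9478 bases in all, and 1 piece carried most of the reads. That longest piece, of 3990 bases, had 1581 reads in Madoi and 1361 in Maqu, or 5.99 RPKM in Madoi and 4.97 RPKM in Maqu. Its log2 ratio was 0.33 (interval 0.22 to 0.43), and it held 75.5% of the reads of this annotation in Madoi and 72.3% in Maqu. The gene ontology terms of this piece in the table name cardiac muscle contraction and responses to caffeine, hypoxia and redox state. The other pieces lay between 1.04 and 2.4 RPKM in Madoi and between 0.70 and 2.34 RPKM in Maqu.

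Those short pieces went both ways. The second piece, of 1217 bases, had 80 reads in Madoi against 187 in Maqu and was called lower, at -1.11 (interval -1.51 to -0.73). The third piece, of 735 bases, had 107 reads in Madoi against 53 in Maqu and was called higher, at 1.12 (interval 0.64 to 1.63). The eighth piece, of 334 bases, had 38 reads in Madoi against 14 in Maqu and was also called higher, at 1.52 (interval 0.63 to 2.55). The third and eighth pieces each had a sister piece in the same assembly component that was not called, with ratios of -0.06 and 0.27. The other 7 of the 10 short pieces ranged from -0.18 to 0.97 and all their intervals included 0. Without the longest piece the sum was 512 reads in Madoi and 521 in Maqu, with a ratio of 0.08 (interval -0.09 to 0.26).

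Ryanodine receptor 3, a channel of the same family known from brain, smooth muscle and some skeletal muscles, was near the lower end of what these libraries could measure. Its 4 copies were 221 to 939 bases long and had 158 reads in Madoi and 190 in Maqu together. The longest copy had 95 reads in Madoi and 80 in Maqu, with a ratio of 0.36 (interval -0.09 to 0.81). The second copy had 25 reads in Madoi against 72 in Maqu and was called lower, at -1.40 (interval -2.13 to -0.74). The third copy had 28 reads in Madoi against 33 in Maqu, and the shortest 10 in Madoi and 5 in Maqu, with intervals that included 0. The sum stood at -0.16 with an interval from -0.47 to 0.16, so a difference in this annotation was not detectable at this depth. Taken from its longest copy alone the annotation stood on the other side of 0, at 0.36. Of the 16 members with 15 to 300 reads, 2 were called higher and 2 lower. Among all assembled genes in that range of reads, a range set to hold these members, 34.2% were called higher and 13.5% lower.

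**Figure D2:**
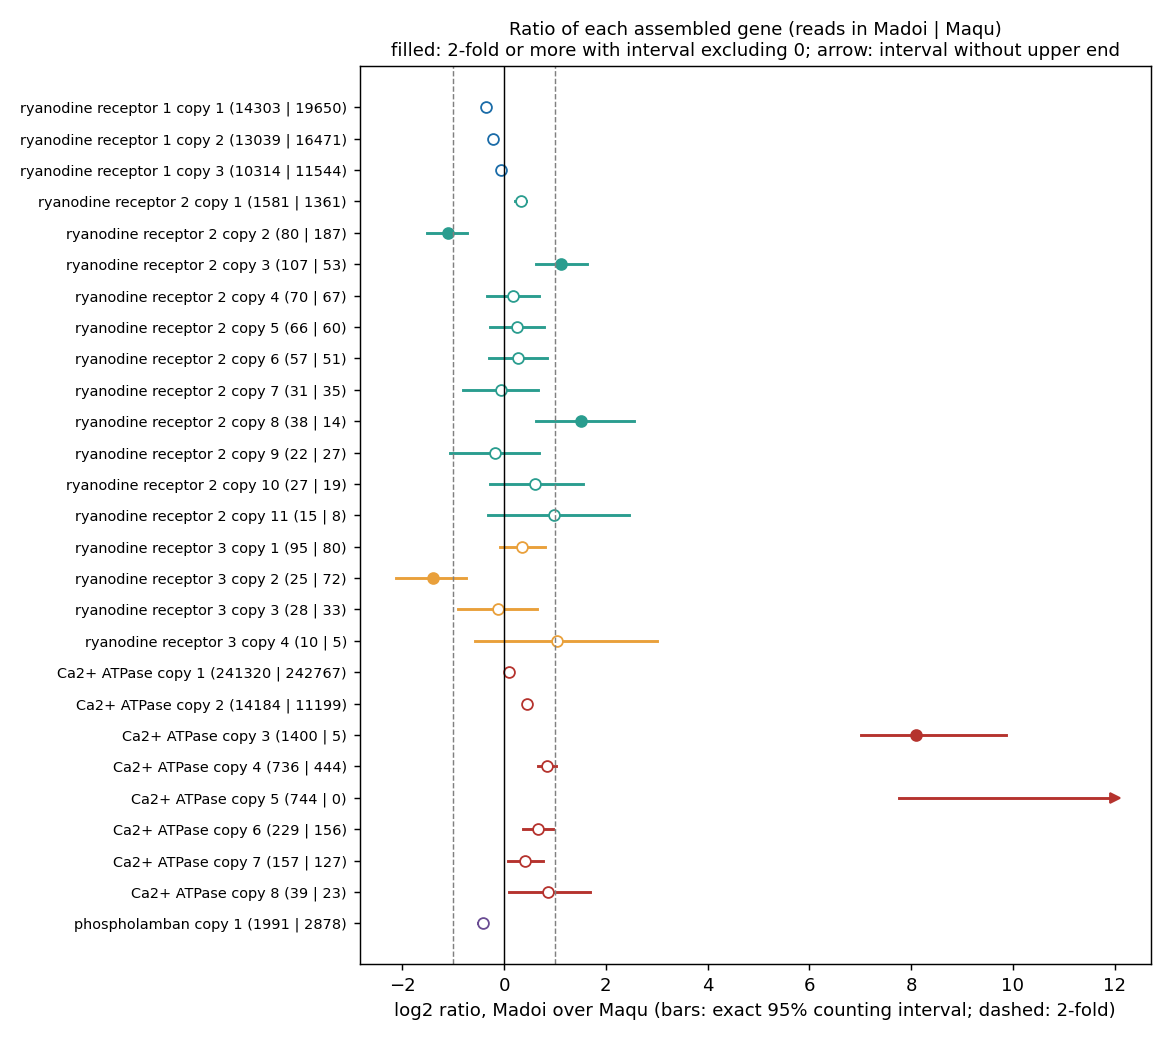
Log2 ratio of Madoi over Maqu (horizontal axis) for each of the 27 assembled genes, ordered by annotation and by reads, with the exact 95% counting interval as a bar and the reads of Madoi and Maqu beside the name. Filled points passed the 2-fold call; the arrow marks the ATPase copy with 0 reads in Maqu, whose interval has no upper end. Pieces of ryanodine receptor 2 lie on both sides of 0, while all ATPase copies lie above it.

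The calcium ATPase of the reticulum, the pump that refills the store, had 8 copies. Of these, 6 had ratios between 0.10 and 0.86, with 0 called, though their intervals all lay above 0. The largest copy, of 3931 bases, had 241320 reads in Madoi and 242767 in Maqu, with a log2 ratio of 0.10 (interval 0.09 to 0.11). It ranked 59 of all assembled genes by RPKM in Madoi and 58 in Maqu, and held 93.2% of the reads of the annotation in Madoi and 95.3% in Maqu. Its gene ontology terms name the I band and H zone of the sarcomere and positive regulation of contraction in fast-twitch skeletal muscle fibres. The most abundant pump transcript of these libraries thus had nearly equal reads in both.

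The second ATPase copy, of 2537 bases, had 14184.5 reads in Madoi and 11199 in Maqu, with a ratio of 0.45 (interval 0.42 to 0.49). Its terms name regulation of muscle contraction and response to peptide hormones, without the sarcomere terms of the largest copy. A short copy of 247 bases from the same assembly component had 736 reads in Madoi and 444 in Maqu, or 63.1 RPKM in Madoi and 36.7 RPKM in Maqu, with a ratio of 0.84 (interval 0.67 to 1.01). In the authors' deposited table this short copy had a p-value of 0.0257 and an FDR of 0.333, and it was not marked significant. The largest copy was 9.15 times the level per length of the second in Madoi and 11.7 times in Maqu.

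A group of 3 ATPase copies that share 1 best-matching protein entry was read at low levels, with terms that add the nuclear membrane to the reticulum. They had 229, 157 and 39 reads in Madoi, and 156, 127 and 23 in Maqu in the same order of copies. Their ratios were 0.66, 0.41 and 0.86, and the sum, 425 reads in Madoi and 306 in Maqu, stood at 0.58 (interval 0.37 to 0.80). All 3 intervals lay above 0 and 0 of the 3 copies reached 2-fold.

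The remaining 2 ATPase copies were read almost only in Madoi and are given apart, as they may not be lizard sequences. The copy with 0 reads in Maqu, of 1489 bases, had 744 reads in Madoi, 7.80 RPKM, and was listed at 0 in Maqu. Against a limit of 3 counts in the Maqu library it was at least 268-fold higher in Madoi. A copy of 2398 bases from the same assembly component had 1400 reads in Madoi and 5 in Maqu, or 8.94 RPKM in Madoi and 0.03 RPKM in Maqu, with a ratio of 8.10 (interval 7.01 to 9.86). These were the 2 members that the authors' deposited table marked significant, where the copy at 0 in Maqu had a p-value of 0.00741 and an FDR of 0.165 and the other a p-value of 0.00435 and an FDR of 0.117. Their best-matching protein entries differed from each other and from those of the other 6 copies. Of all assembled genes, 10345 (17.7%) had 0 reads in Maqu, and the source of such copies was not tested here. Without the copies read almost only in Madoi the annotation stood at 0.12 (interval 0.11 to 0.13), with 256666 reads in Madoi against 254716 in Maqu, and 2 of the 25 remaining members were higher and 2 lower.

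Phospholamban, the brake on the pump, was represented by 1 assembled gene of 1913 bases in 2 transcripts. It had 1991 reads in Madoi and 2878 in Maqu, with a log2 ratio of -0.42 (interval -0.50 to -0.34), 0.747 times the Maqu level. It was not called, and in the authors' deposited table its log2 fold change was -0.53 with a p-value of 0.161. Of the annotations, it had the lowest ratio. The second ATPase copy had 6.33 times the level per length of phospholamban in Madoi and 3.46 times in Maqu. Phospholamban stood at 40.0 per 1000 of cardiac troponin I, a marker of heart muscle, in Madoi and at 76.0 per 1000 in Maqu, both per length.

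Markers of heart muscle stood higher in Madoi, in the direction of ryanodine receptor 2 in sum, and opposite to phospholamban. The 6 ATPase copies not read almost only in Madoi also stood above 0, as did the median of all assembled genes, at 0.19. The largest of these copies, at 0.10, lay below that median. All 7 heart annotations reached 10 reads, 6 of them stood above 0, and their median was 0.65, from -0.09 for natriuretic peptide A to 1.23 for T-box protein 5. T-box protein 5 and homeobox protein Nkx-2.5, transcription factors of heart development, were called higher. The summed reads of the heart annotations were 172743 in Madoi and 125143 in Maqu. The part of these marker differences in the ratios of ryanodine receptor 2, phospholamban and the ATPase copies was not tested.

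Markers of fast skeletal muscle differed less. Their 4 annotations ranged from -0.22 for skeletal alpha actin to 0.41 for skeletal troponin C, with a median of 0.05, or -0.0088 from the deposited RPKM, 0 called, and summed reads of 776018 in Madoi and 891065 in Maqu. Ryanodine receptor 1 stood at 54.2 per 1000 of fast troponin I in Madoi and 61.2 per 1000 in Maqu, per length. The 3 slow muscle or ventricle annotations had a median of 0.10, with 42134 reads in Madoi against 35857 in Maqu. Of the 3 smooth muscle annotations, aortic smooth muscle actin was called lower at -1.15, the median was -0.70, and the summed reads were 173927 in Madoi and 247203 in Maqu. Most of these reads were of desmin, with 124636 in Madoi and 160536 in Maqu at a ratio of -0.26. Desmin is also a protein of skeletal and heart muscle, both of which were pooled here. The sum therefore mainly follows desmin, which is not specific to smooth muscle, and not the smooth muscle actins.

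Of 6 neuron annotations, 3 were called higher and 1 lower, with a median of 2.26, or 0.71 without copies read almost only in 1 library, and 3192 summed reads in Madoi and 1497 in Maqu. In all, 4 stood above 0 and 2 below. Among them neurofilament light polypeptide had 1067 reads in Madoi against 82 in Maqu, and medium neurofilament had 97 in Madoi and 0 in Maqu. Gamma-aminobutyric acid (GABA) B receptor 1 was the 1 called lower, with 381 reads in Madoi against 1296 in Maqu and a ratio of -1.65. Liver markers had a median of -0.65 over 8 annotations, of which 1 was called higher and 2 lower, with 105570 summed reads in Madoi and 188010 in Maqu, and lung markers -1.12 over 3, of which 2 were lower, with 15851 in Madoi and 26139 in Maqu. In these marker lists 0 defining genes were at 0 reads in Madoi and 1, medium neurofilament, in Maqu. The part of these other tissues in the members' values was not tested.

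Other parts of the calcium machinery were followed over the 38 annotations that matched a wider pathway list, in 7 groups. Of these, 1 was called higher, 1 lower and 36 neither, and the median was -0.03, or 0.0851 from the deposited RPKM, beside 0.12 over all 4819 annotations. Without copies read almost only in 1 library, the median was -0.04 for the list and -0.02 over the 4680 annotations left. Over all annotations, 11.6% were called higher in Madoi and 6.33% lower. Most of these matched annotations therefore differed less than 2-fold between the libraries, as the ryanodine receptors and the pump did in sum. The list also named triadin, STIM, ORAI and the mitochondrial calcium uniporter, among others, and these are not among the 38.

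The voltage-gated L-type channel is the sensor that triggers the ryanodine receptor, and both calls fell in this group of 11 annotations. Its pore subunit of skeletal muscle, alpha 1S, had 2627 reads in Madoi and 3315 in Maqu, with a ratio of -0.23 (interval -0.30 to -0.15). Ryanodine receptor 1, at -0.23 as well, stood at 5.96 times alpha 1S per length in Madoi and 5.97 times in Maqu. This near-equal proportion holds for alpha 1S and the sum of the 3 copies of ryanodine receptor 1. The single copies ranged from -0.35 to -0.05, and the accessory channel subunits had other ratios, given below.

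The accessory subunits spread more widely. Gamma subunit 1, which is known from skeletal muscle, was called lower with 1115 reads in Madoi against 2582 in Maqu, at a ratio of -1.10 (interval -1.20 to -0.999). The beta 1 subunit, the form of the skeletal channel, stood at -0.71 (interval -0.91 to -0.52), and alpha 2/delta subunit 1 at -0.49 (interval -0.60 to -0.38). Alpha 1S, gamma 1, beta 1 and alpha 2/delta subunit 1 thus had intervals below 0, while that of gamma subunit 6, from -0.26 to 0.17, included 0. The beta 2 subunit, the main form of the heart, had 652 reads in Madoi and 394 in Maqu, with a ratio of 0.84 (interval 0.65 to 1.02). The beta 4 subunit was called higher at 1.12 (interval 0.46 to 1.84), with 57 reads in Madoi against 28 in Maqu. Its assembled gene came from the same assembly component as the beta 2 copy with the most reads, which stood at 0.85. Whether the beta 4 piece is a gene of its own was not tested. The cardiac pore subunit alpha 1C stood at -0.20 (interval -0.46 to 0.07) and alpha 1D at -0.74 (interval -1.29 to -0.20). Beta 3 stood at 0.45, gamma 6 at -0.05 and alpha 2/delta subunit 2 at 0.51, the last with 28 reads in Madoi against 21 in Maqu.

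**Figure D3:**
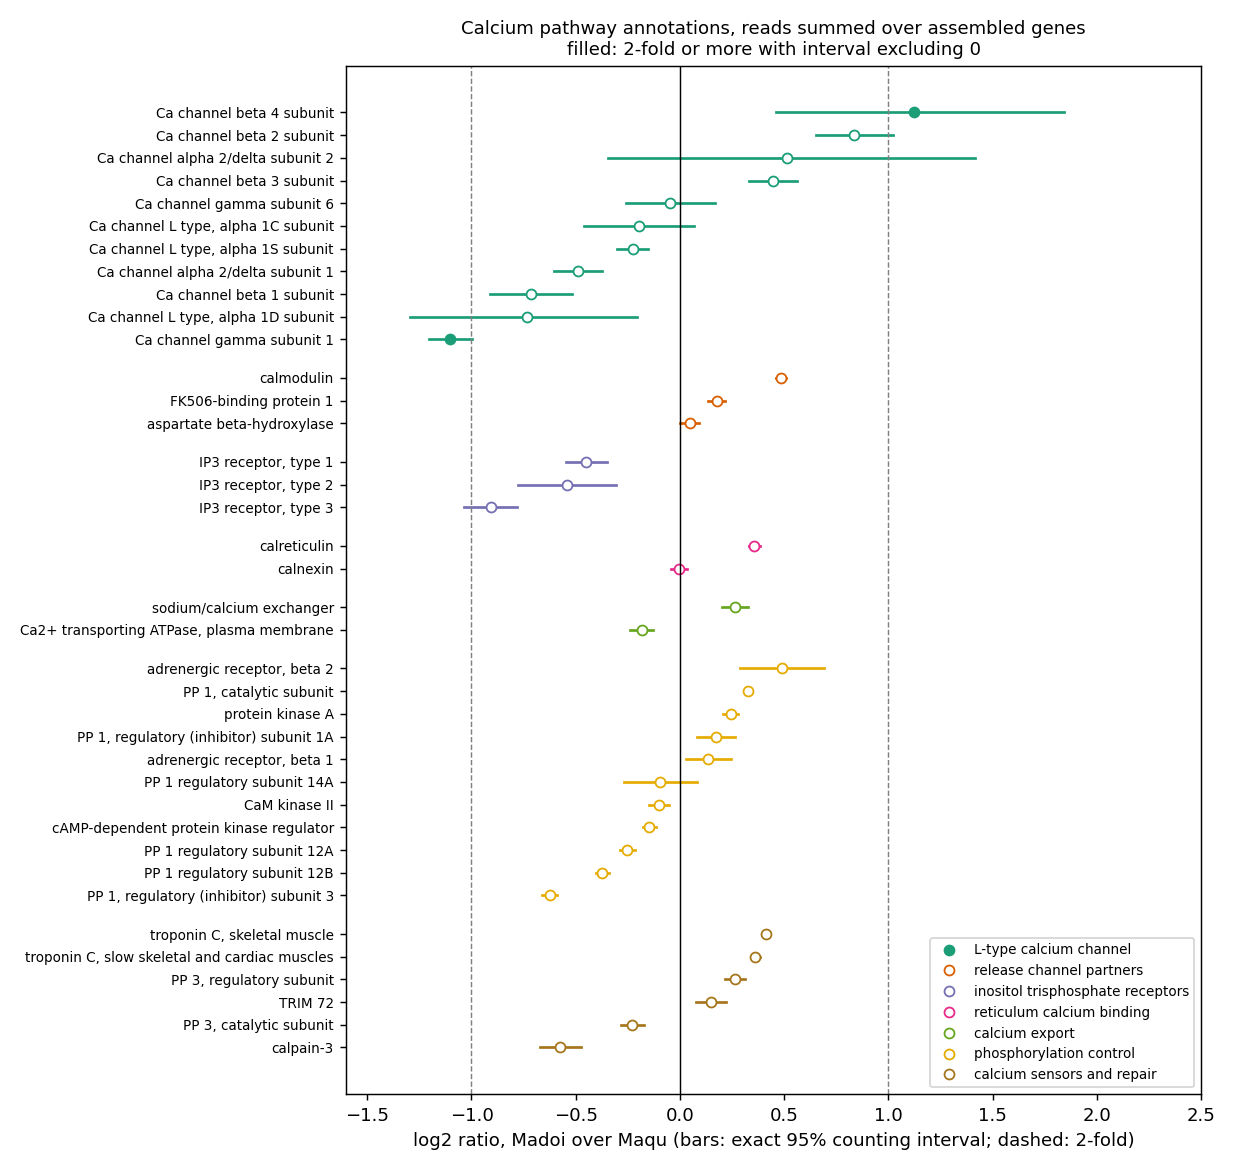
Log2 ratio of Madoi over Maqu (horizontal axis) for 38 annotations of the calcium machinery in 7 groups shown by colour, reads summed over copies, with exact 95% counting intervals as bars and the 2-fold lines dashed. Filled points, the beta 4 and gamma 1 channel subunits, passed the 2-fold call; all 3 inositol trisphosphate receptors lie below 0.

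Inositol trisphosphate receptors release calcium from the same kind of store in non-muscle and smooth muscle cells, and all 3 types stood below 0 without being called. Type 1 had 1386 reads in Madoi and 2042 in Maqu, with a ratio of -0.45 (interval -0.55 to -0.35). Type 2 had 249 reads in Madoi and 391 in Maqu, with a ratio of -0.54 (interval -0.78 to -0.31). Type 3 had 760 reads in Madoi and 1540 in Maqu, the lowest of the 3 at -0.91 (interval -1.04 to -0.78).

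Proteins that bind the release channel stood near or above 0 when summed over copies, and 0 of 3 was called. FK506-binding protein 1, which steadies the closed channel, had a ratio of 0.18, and aspartate beta-hydroxylase, whose gene also gives the junctional protein junctin, 0.05. Without copies read almost only in 1 library, these were 0.11 and 0.0005. The FK506-binding protein 1 copy with the most reads stood at 0.27 (interval 0.22 to 0.32), and another copy at -0.21 (interval -0.30 to -0.12). Calmodulin, a calcium sensor that binds the channel, stood at 0.48 with 29017 reads in Madoi against 22377 in Maqu, and at 0.10 without its copies read almost only in 1 library. Of the calcium-binding chaperones of the reticulum, calreticulin stood at 0.36 and at -0.00 without such copies, and calnexin at -0.01 with all copies.

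Calcium also leaves the cell through the sodium/calcium exchanger of solute carrier family 8, an important exit in heart cells. The exchanger had 4631 reads in Madoi and 4164 in Maqu, with a ratio of 0.26 (interval 0.20 to 0.32). The plasma membrane calcium ATPase stood at -0.18, and at -0.50 without copies read almost only in 1 library.

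Phospholamban is phosphorylated by protein kinase A after beta adrenergic stimulation and by CaM kinase II, and dephosphorylated by protein phosphatase 1. The group followed for this control held 11 annotations, some of them known for other targets as given below, and 0 was called. The beta 1 adrenergic receptor stood at 0.14 and the beta 2 receptor at 0.49, with 471 reads in Madoi against 362 in Maqu for the beta 2 receptor. Taken from its copy with the most reads, at 592 in Madoi and 839 in Maqu, the beta 1 receptor stood on the other side of 0, at -0.39. Protein kinase A stood at 0.24, the cAMP-dependent protein kinase regulator at -0.15 and CaM kinase II at -0.10. Without copies read almost only in 1 library, these were 0.22, -0.15 and -0.23. The catalytic subunit of protein phosphatase 1 stood at 0.33, or 0.17 without such copies, and its inhibitor subunit 1A at 0.17. Its regulatory subunits 12A, 12B and 14A, which belong to myosin phosphatase or act on it, stood at -0.25, -0.37 and -0.09. Of these, 12B had the most reads, 14435 in Madoi and 20169 in Maqu. The 12B copy with the most reads, at 7194 in Madoi and 13745 in Maqu, stood at -0.82, further from 0 than the sum. In all, 5 of the 11 stood above 0 and 6 below. Regulatory subunit 3, known for targeting the phosphatase to glycogen, had the lowest ratio of the group at -0.63 (interval -0.66 to -0.59). Without copies read almost only in 1 library, it stood at -0.75. Its copy with the most reads, at 2779 in Madoi and 7656 in Maqu, had a ratio of -1.35 and was called lower by itself.

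Among calcium sensors, troponin C of skeletal muscle stood at 0.41 and that of slow skeletal and cardiac muscles at 0.36. The catalytic subunit of protein phosphatase 3, or calcineurin, stood at -0.23 and its regulatory subunit at 0.26. Without copies read almost only in 1 library, these were -0.46 and 0.13. Calpain-3, a calcium-dependent protease of skeletal muscle, had 1358 reads in Madoi and 2182 in Maqu, with a ratio of -0.57 (interval -0.67 to -0.48). Tripartite motif-containing protein 72, which takes part in membrane repair, stood at 0.15.

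Gene ontology terms reached further assembled genes than the annotation texts of the members did. Apart from the members, 36 assembled genes carried a term for the sarcoplasmic reticulum, chosen after the data were seen, with a median ratio of 0.02. Of these 2 were called higher and 5 lower, beside the 28.5% higher and 10.7% lower of all assembled genes. The 36 include copies of annotations already given above, such as inositol trisphosphate receptors of types 1 and 2, FK506-binding protein 1 and calreticulin. Short pieces of those receptors are among the 5 called lower. Without an annotation text were 14 of the 36, and their names are not given here.

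An unnamed assembled gene of 783 bases with terms for the reticulum membrane, ATPase inhibitor activity and regulation of calcium transport had 20319 reads in Madoi and 13383 in Maqu. Its level was 425 RPKM in Madoi and 270 RPKM in Maqu, with a ratio of 0.71 (interval 0.68 to 0.74). This lay in the opposite direction to phospholamban, which carries the same ATPase inhibitor term, and the level was far above that of phospholamban in both libraries. An assembled gene of 1742 bases, with terms for the reticulum lumen and calcium ion binding only, had 24552 reads in Madoi and 24762 in Maqu. It stood at 218 RPKM in Madoi and 212 RPKM in Maqu, and its ratio was 0.10 (interval 0.07 to 0.12). An assembled gene with terms for the junctional membrane complex and regulation of the ryanodine-sensitive channel had 1277 reads in Madoi and 1648 in Maqu, with a ratio of -0.26 (interval -0.36 to -0.15). A potassium channel gene of the reticulum and nuclear membranes had 5119 reads in Madoi and 3356 in Maqu, with a ratio of 0.72 (interval 0.66 to 0.78). These 4 were named after their values were seen, and none of them was called. Of the 14 without an annotation text, 1 was called, in the higher direction. This assembled gene, of 1040 bases, has terms that include the reticulum lumen and calcium ion binding. It had 484 reads in Madoi, 7.43 RPKM, and 0 in Maqu, and is given apart, as it may not be a lizard sequence.

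**Figure D4:**
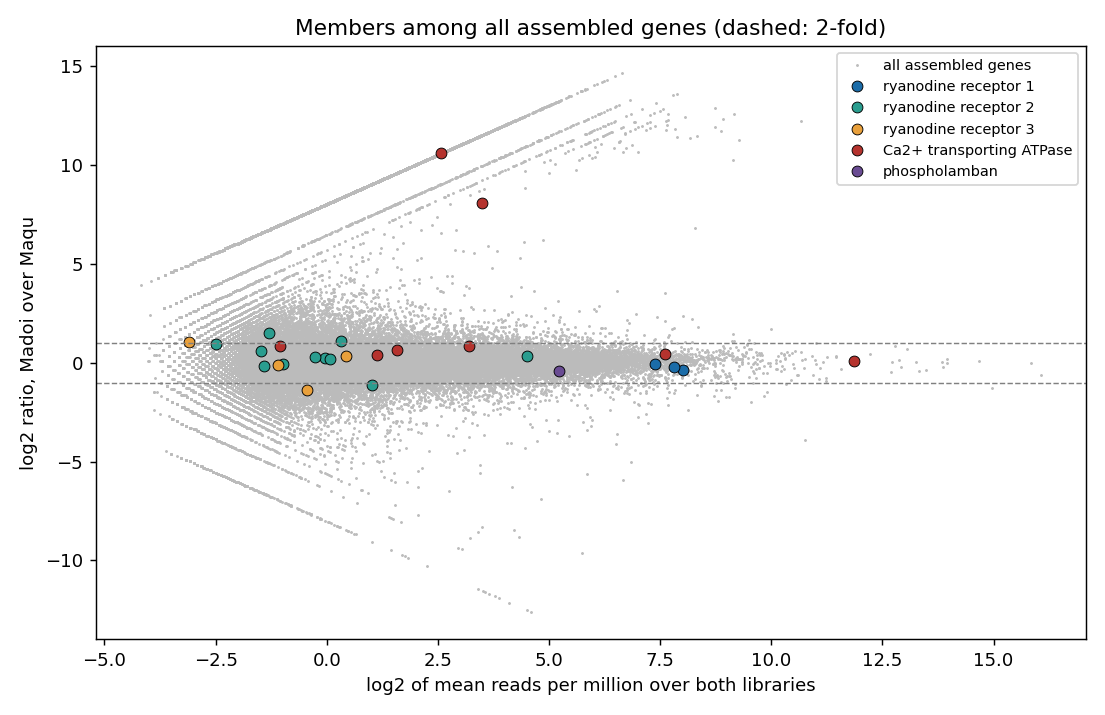
Log2 ratio of Madoi over Maqu (vertical axis) against the mean CPM on a log2 scale (horizontal axis) for all assembled genes (grey points) and the 27 members (coloured by annotation), with 2-fold lines dashed. The position of a gene with 0 reads in 1 library depends on the pseudocount of 0.5 reads. The 2 ATPase copies read almost only in Madoi lie in the upper band of such genes, and the abundant members lie near 0.

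The table also assigns annotations to pathways. Its calcium signaling pathway held 86 annotations, 81 of them not members. Of those 81, 7 were called higher, 6 lower and 68 neither, with a median of -0.10, below the 0.12 of all annotations. Without copies read almost only in 1 library, these medians were -0.14 and -0.02. The cardiac muscle contraction pathway held 46 annotations outside the members, with 2 higher, 1 lower and a median of 0.18, or 0.10 without such copies. Both pathways' calls stand beside 11.6% higher and 6.33% lower over all annotations.

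In the authors' deposited table, 6098 assembled genes (10.4%) were marked significant, and 2 of the 27 members. All marked genes had an unadjusted p-value of at most 0.05 and at least a 2-fold difference, and their FDR reached 0.441. Among the members that were not marked, the smallest p-value was that of the 247-base ATPase copy given above.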

How the data were processed

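Per the labels, RNA was isolated with a Promega total RNA kit and 1 Illumina library was made per population. The design text names Trinity, BLAST and KaKs_Calculator. How reads were aligned and counted, with which versions, and which test gave the p-values is not given in the sources used here.

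Per the file headers and values, the authors deposited expected counts (estimated reads with decimals), RPKM over effective length, and the log2 of the Madoi over Maqu RPKM. The p-value and FDR the authors deposited rest on single libraries and are printed as theirs alone.

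Expected counts were rounded and scaled by TMM (edgeR 4.0.16 in R 4.3.3, factors 0.983 for Madoi and 1.02 for Maqu). Ratios added 0.5 reads, intervals were exact (Clopper-Pearson, 95%), and a fold against 0 used 3 counts in the library. Reads are not independent molecules, so intervals and floors cover counting error only. Levels of several copies together are reads over summed effective length and library total. Ratios of 1 level per length to another within a library also use reads over effective length and library total, not the deposited RPKM. No test across genes was made, and the calling step was tested on simulated data.

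The members, lists and alternatives were chosen with earlier results of these data known. The rule for named genes took all member annotations, the pathway annotations that were called and the 2 with the most reads in each group. The other pathway annotations, all of which are printed, and the grouping of channel subunits by tissue, were named after their values were seen. Alternatives were library totals, DESeq2 1.42.0 size factors, other minimum counts, thresholds and pseudocounts, the RPKM ratio and other treatments of copies. Python 3.11.15 was used for the rest.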

Additional observations from a re-analysis of the deposited data

How the results depend on the processing

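Of 13 other settings, 8 were run for single copies and 4 of those can change a ratio. Under these 4 (library totals, DESeq2 size factors, 5 reads as pseudocount and the deposited RPKM) all 107 copy ratios kept their sign. Over the 8 settings 5 copy calls changed. The 4 called pieces of ryanodine receptors 2 and 3 were lost at a 4-fold threshold, and the shortest piece of ryanodine receptor 3 was called higher without the counting interval. At 4-fold, 2 members were higher and 0 lower, beside 22.1% higher and 3.76% lower of all assembled genes. At this threshold 0 pathway annotations were higher and 0 lower. Scaling by library totals gave 0.0843 for the calcium ATPase, -0.28 for ryanodine receptor 1 and a median of 0.0537 for slow muscle or ventricle markers. The deposited RPKM gave -0.53 for phospholamban, -0.30 for ryanodine receptor 1 and 0.0479 for slow muscle or ventricle markers, and turned the medians of the fast skeletal markers to -0.0088 and of the pathway list to 0.0851. The neuron median stood at 3.80 with at least 50 reads and at 0.71 without copies read almost only in 1 library. With the copy with the most reads, the ATPase stood at 0.10, ryanodine receptor 1 at -0.35 and ryanodine receptor 3 at 0.36, turned from -0.16, and 2 pathway annotations were lower, the other being protein phosphatase 1 regulatory subunit 3. Without copies read almost only in 1 library the ATPase stood at 0.12. Chosen after seeing the data, leaving out both ATPase copies of this kind left 2 members higher, and leaving out assembled genes under 500 bases gave 0.36 for ryanodine receptor 3. Both values of 0.36 are those of the longest copy of ryanodine receptor 3, of 939 bases, the only one not under 500 bases. The shifts under library totals come from leaving out the TMM factors. The cause of the remaining shifts was not tested. With 1 library per population no replicate could be left out. No paired analysis was possible because each population has 1 library.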
